A study of Equus caballus with 8 samples.

Results

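The genes described here are the WNT ligands, their receptors and co-receptors, the secreted and membrane proteins that block or amplify them, and the TCF/LEF factors at the end of the pathway, in equine mesenchymal stem cells from bone marrow (BM-MSCs) grown with or without transforming growth factor-beta2 (TGF-β2). Members were chosen by gene symbol alone, and 51 of the 15266 named genes in the expression table matched, while 15 other RefSeq symbols that match, such as WNT3A and LGR5, were not analysed here. Marrow from 4 horses, D, J, L and W, was divided between an untreated culture and a culture given 1 ng/ml human recombinant TGF-β2 from isolation through passage 3 or 4. Both cultures of a horse shared low glucose medium with fetal bovine serum and, by the study's methods, basic fibroblast growth factor, and each gave 1 poly(A)-selected RNA library, so the comparison is within horse with n = 4 pairs. The horses were Thoroughbreds or Thoroughbred crosses, and a culture was plastic-adherent marrow cells and not a clone, so each value is an average over whatever cells had attached. The comparison asks which parts of the WNT pathway differ in RNA level in cells held in TGF-β2.

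WNT proteins are secreted lipid-modified ligands that bind frizzled receptors. In the canonical branch, a frizzled and the co-receptor LRP5 or LRP6 together prevent the breakdown of β-catenin, which then acts with TCF/LEF factors on target genes. Other branches run through ROR and RYK receptors, planar cell polarity proteins and calcium, without β-catenin. In marrow stromal cells the canonical branch is known for favouring bone formation over fat and cartilage, and the pathway is held in check at the cell surface by SFRP, DKK and WIF1 antagonists and inside the cell by AXIN and NKD proteins.

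The libraries held 39184554 to 57228675 reads assigned to genes, and 3 reads, taken as the limit below which a level is not distinguished from 0, equalled 2.02 to 3.60 normalized counts. The 7 stromal markers listed for the check of cell identity were in the table and summed to 173462 to 369344 normalized counts in untreated cells and 173015 to 271858 in treated cells. Of these, 2 fell with treatment, THY1 (log2 fold change -2.21, adjusted p = 0.00203) and VCAM1 (log2 fold change -7.55, adjusted p = 0.00135). Of 9 leukocyte markers 7 were in the table, and they summed to 2874 in untreated cells of horse J against 666 to 1135 in the other untreated and 528 to 865 in the treated libraries. The 4 smooth muscle markers summed to 33086 to 173023 in untreated and 209054 to 573867 in treated cells. Of these, ACTA2, CNN1 and DES were called higher, where 6.83% of all genes were, and MYH11 was not called in any fit (log2 fold change -0.85 to 0.34 over the alternatives). DES had only 1 to 8 reads in untreated and 21 to 193 in treated libraries. It was therefore tested only because of its treated libraries, where it is high. Of 10 TGF-β response genes 8 were called higher, beside 6.83% of all genes, among them IL11 (log2 fold change 3.98) and SKIL (log2 fold change 1.61). SMAD7 (log2 fold change -0.29 to 0.15 over the alternatives) and LTBP2 (-0.45 to 0.06) were not called in any fit. The list was chosen with earlier results of these data known, so the count is a description and not a test. In bulk RNA of this kind, fewer cells of a type and less RNA per cell cannot be told apart, and the part of the marker levels in the WNT results was not tested.

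Expression of the WNT genes differed between the cultures in both directions. SFRP2, WNT5B, FZD9, SFRP5, DKK1, NKD1, WNT7B, FZD3 and LRP5 were higher with TGF-β2, and SFRP4, KREMEN1, RSPO4, WNT2B, FZD8, NKD2, NOTUM, ROR1, WNT11, FZD1 and FZD5 were lower. A gene is called here when its fold change exceeds 2-fold (1 on the log2 scale) with a Benjamini-Hochberg adjusted p under 0.05, in a limma fit of log2(normalized count + 1) with the horse as a block. Of the 48 members that passed a filter on low values (RSPO1, WNT8A and WIF1 did not), 20 were called, which is 41.7% against 14.1% of all 14907 genes tested. The 9 higher members stand beside a background of 6.83% of genes called higher, and the 11 lower members beside 7.31%. The members were chosen with earlier results of these data known, so these shares are a description and not a test. The median member had an absolute log2 fold change of 0.98, against 0.35 over all genes, while the signed medians were 0.15 and 0.0055. The levels of the 4 treated and 4 untreated libraries did not overlap in 15 of the 48 members (31.2%), near the 27.8% of all genes with separate groups.

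The number of calls depended on the horses and on the scale. Without the horse block 18 members were called, 9 in each direction, and 15 of them were among the 20, with a background of 11.5% of all genes. Leaving out horse D gave 10 calls (6 higher, 4 lower), horse L 12 (8 and 4) and horse W 6 (4 and 2), whereas leaving out horse J gave 24 (9 and 15). Over all genes, the calls went from 2108 to 1173 without horse D, 1875 without L, 1080 without W and 2442 without J. Of the 2108 genes, 931 were called in each of these 4 fits. Of the 20 members, 5 were, namely WNT5B, FZD9, LRP5, NOTUM and RSPO4. Of these, FZD9 and RSPO4 did not reach the filter's 10 normalized counts in every library of their lower group. Both thus passed the filter with the help of the group where they are high. For a call that some fit did not make, the lowest and highest adjusted p over all the fits run are given below as its alternatives. Scaling the libraries to equal totals moved the median gene by -0.30 on the log2 scale and left 5 members higher and 14 lower, beside 697 genes higher and 1832 lower over all genes tested. That scaling ended the calls of FZD3, NKD1, LRP5 and WNT7B, whose log2 fold changes became 0.99, 1.03, 0.95 and 0.99, and no called member changed sign under it. With the horse term in edgeR, or with no variance trend in limma, SFRP4, ROR1 and NKD2 were not called, and with upper-quartile scaling ROR1 and NKD2 were not. DESeq2 without the horse term did not call DKK1, NKD1, NKD2 or WNT7B. It gave no adjusted p for SFRP4, which was therefore not called there either.

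**Figure D1:**
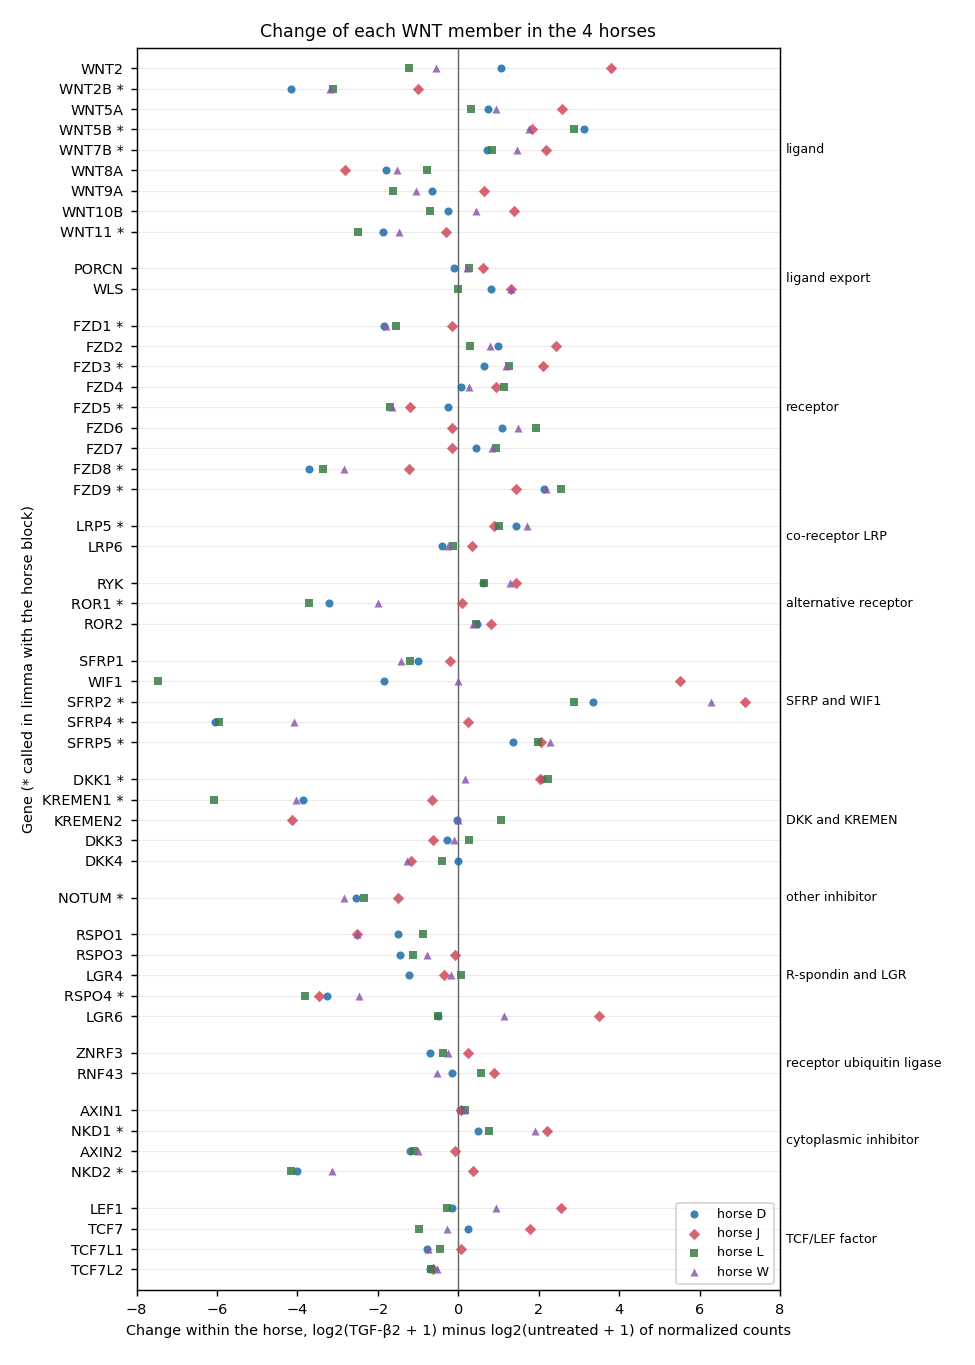
Change of each of the 51 WNT members within each horse, as log2(TGF-β2 + 1) minus log2(untreated + 1) of normalized counts (horizontal axis), with 1 row per gene grouped by role (vertical axis), 1 symbol per horse and an asterisk on the 20 called members. Points of RSPO4, NOTUM and WNT5B lie on 1 side of 0 in all 4 horses, whereas SFRP4, NKD2 and ROR1 lie far to the left in horses D, L and W and near 0 in horse J.

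Of the 9 ligands in the table, WNT5B and WNT7B rose and WNT2B and WNT11 fell. WNT5B, a ligand known mainly for signalling without β-catenin, had 342, 654, 372 and 341 normalized counts in untreated cells of horses D, J, L and W, and 3016, 2316, 2746 and 1158 after TGF-β2 in the same order, which is kept below. Every treated library exceeded every untreated one (log2 fold change 2.40 ± 0.27 (SE), adjusted p = 0.00418), and horse J had the highest untreated and horse W the lowest treated level. WNT7B, a ligand that can act through the canonical branch, had 553, 327, 134 and 30.4 normalized counts untreated and 915, 1484, 240.3 and 85.3 treated. It rose in each of the 4 horses (log2 fold change 1.30 ± 0.27 (SE), adjusted p = 0.0203), but the horses lay far apart and the groups overlapped, with horse W lowest in both. Without the block its adjusted p was 0.439, and the call was also lost without horse D or W (log2 fold change 1.25 to 1.49, adjusted p from 0.0547 to 0.0923), alternatives 0.000178 to 0.439.

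WNT2B, a ligand of the canonical branch, had 231, 165, 128 and 226 normalized counts untreated and 11.9, 81.4, 13.8 and 24.0 treated. The groups did not overlap (log2 fold change -2.87 ± 0.52 (SE), adjusted p = 0.0133), and horse J kept the most of it after treatment. The call of WNT2B was lost without horse D or W (log2 fold change -2.77 to -2.44, adjusted p from 0.0571 to 0.0748), alternatives 1.34e-06 to 0.0748. WNT11, a ligand known for polarity signalling in development, had 269.7, 84.2, 334 and 297 normalized counts untreated and 72.7, 67.4, 58.6 and 107 treated. It fell in all 4 horses (log2 fold change -1.54 ± 0.37 (SE), adjusted p = 0.029), with horse J low before treatment and so overlapping the treated group. The WNT11 call was lost without horse D, L or W (log2 fold change -1.56 to -1.22, adjusted p from 0.0784 to 0.12), alternatives 0.000492 to 0.12.

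WNT5A, the close relative of WNT5B and the best known ligand of ROR2, had 4483, 1882, 3333 and 3121 normalized counts untreated and 7536, 11345, 4159 and 5946 treated. It was higher in each horse, most of all in horse J, with 1 treated library (horse L) inside the untreated range. WNT5A was called without the block (adjusted p = 0.0449) and by DESeq2 with or without the horse term, and not by limma with the block (log2 fold change 1.15 ± 0.37 (SE), adjusted p = 0.0661, alternatives 0.00638 to 0.17). WNT9A was lower in horses D, L and W and higher in horse J (log2 fold change -0.67 ± 0.37 (SE), adjusted p = 0.213). It was called only without horse J (log2 fold change -1.11, adjusted p = 0.0145, alternatives 0.0145 to 0.524). WNT2 and WNT10B had horses moving in both directions: WNT2 went from 34.3 to 487 normalized counts in horse J and from 384 to 164 in horse L (log2 fold change 0.77 ± 0.83 (SE), adjusted p = 0.513). WNT10B averaged 784 ± 654 normalized counts without and 803 ± 363 with TGF-β2 (SD, n = 4), and the sign of its small difference (log2 fold change 0.22, adjusted p = 0.657) turned when libraries were scaled to equal totals. WNT8A, under the filter, had 14.8, 43.8, 6.60 and 12.2 normalized counts untreated and 3.57, 5.35, 3.45 and 3.60 treated, levels close to the 3-read limit in the treated libraries although the groups did not overlap.

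Export of WNT proteins needs PORCN, which attaches their lipid, and WLS, the carrier that brings them to the cell surface. WLS had 4879, 3689, 8234 and 3668 normalized counts untreated and 8558, 9164, 8256 and 9103 treated. Horses D, J and W were higher with TGF-β2 and horse L was nearly level, so that the groups were barely separate and the log2 fold change stayed under the threshold (log2 fold change 0.86, adjusted p = 0.0429). Without horse L it was called (1.14, adjusted p = 0.0132, alternatives 0.00472 to 0.165). PORCN averaged 402 ± 57.9 normalized counts without and 479 ± 85.1 with TGF-β2 (SD, n = 4), with an adjusted p of 0.252 and a sign that turned with scaling to equal totals.

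All 9 frizzled genes in the table passed the filter, with FZD9 and FZD3 higher and FZD8, FZD1 and FZD5 lower. FZD9 was scarce in untreated cells at 8.70, 12.1, 11.3 and 7.10 normalized counts and reached 41.7, 34.3, 71.3 and 36.0 with TGF-β2. The groups did not overlap (log2 fold change 2.08 ± 0.28 (SE), adjusted p = 0.00645), and the call held without any 1 horse. Untreated FZD9 reached the filter's 10 normalized counts in horses J and L alone, so it was tested only because of its treated libraries, where it is high. FZD3, a receptor known for its part in planar polarity, had 45.2, 13.47, 40.5 and 26.4 normalized counts untreated and 71.5, 61.0, 97.7 and 61.3 treated. Each horse was higher and the groups were separate (log2 fold change 1.30 ± 0.29 (SE), adjusted p = 0.0243). The FZD3 call was lost without horse D, L or W (log2 fold change 1.31 to 1.51, adjusted p from 0.0559 to 0.0944), alternatives 0.0023 to 0.0944.

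FZD8 had 5227, 1263, 3054 and 6705 normalized counts untreated and 399, 542, 295 and 942 treated. It fell in every horse (log2 fold change -2.78 ± 0.41 (SE), adjusted p = 0.00796), least in horse J, which began with the lowest level. The FZD8 call was lost without horse W (log2 fold change -2.76, adjusted p = 0.0532), alternatives 1.18e-10 to 0.0532. FZD1 had 46357, 14948, 34905 and 49795 normalized counts untreated and 12842, 13520.3, 12009 and 14456 treated. The 4 treated libraries lay close together, and the untreated ones were just above them in horse J and well above them in the other 3 horses (log2 fold change -1.33 ± 0.30 (SE), adjusted p = 0.0261). The call of FZD1 was lost without horse D, L or W (log2 fold change -1.26 to -1.16, adjusted p from 0.0812 to 0.116), alternatives 0.000157 to 0.116. FZD5 had 188, 512, 466 and 215 normalized counts untreated and 156, 223, 144 and 68.5 treated. It fell in each horse, with little difference in horse D and overlapping groups (log2 fold change -1.20 ± 0.27 (SE), adjusted p = 0.0258). The adjusted p of FZD5 was 0.0921 without the block. The FZD5 call was also lost without horse L or W (log2 fold change -1.05 to -1.03, adjusted p from 0.0838 to 0.113), alternatives 0.000521 to 0.113.

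FZD2 and FZD6 were called without the block and by DESeq2 with the horse term, but not by limma with the block. FZD2 had 654, 273, 939 and 677 normalized counts untreated and 1290.0, 1473, 1146 and 1164 treated. The FZD2 groups were separate and the step was steepest in horse J (log2 fold change 1.12 ± 0.35 (SE), adjusted p = 0.0594, without the block adjusted p = 0.0468, alternatives 0.00868 to 0.159). FZD6 had 1778, 2857, 991 and 1071 normalized counts untreated and 3763, 2573, 3808 and 3016 treated. Horses D, L and W were higher and horse J was slightly lower (log2 fold change 1.09 ± 0.34 (SE), adjusted p = 0.0585, without the block adjusted p = 0.0457). Without horse J the FZD6 log2 fold change was 1.504 (adjusted p = 0.00396, alternatives 0.00396 to 0.204). FZD4, the receptor of norrin as well as of WNTs, averaged 2778 ± 1017 normalized counts without and 4059 ± 809 with TGF-β2 (SD, n = 4; log2 fold change 0.61, adjusted p = 0.0703). FZD7 averaged 1614 ± 579 normalized counts without and 2429.7 ± 1308 with TGF-β2 (SD, n = 4; log2 fold change 0.51, adjusted p = 0.103), and neither gene was called in any alternative.

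The co-receptors differed from each other. LRP5 had 476, 599, 1118 and 645 normalized counts untreated and 1292, 1104, 2251 and 2096 treated. It rose in all 4 horses, with log2 changes of 0.88 to 1.70 (log2 fold change 1.26 ± 0.16 (SE), adjusted p = 0.00555), and horse L was high throughout, so that the groups overlapped slightly. LRP6, which serves the same role, averaged 2585 ± 727 normalized counts without and 2329.7 ± 429 with TGF-β2 (SD, n = 4), a log2 fold change of -0.11 (95% CI -0.46 to 0.23, adjusted p = 0.561). The difference between LRP5 and LRP6 was not tested.

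Among receptors of the branches without β-catenin, ROR1 had 458, 297, 649 and 640.2 normalized counts untreated and 48.8, 316, 48.3 and 159.8 treated. It dropped in horses D, L and W and was level in horse J, whose treated library lay inside the untreated range (log2 fold change -2.21 ± 0.63 (SE), adjusted p = 0.0476). ROR1 was not called by edgeR with the horse term (adjusted p = 0.0627), nor without horse D, L or W (log2 fold change -2.28 to -1.70, adjusted p from 0.132 to 0.171), alternatives 0.000592 to 0.171. Without horse J its log2 fold change was -2.97. RYK, a receptor that binds WNTs without a frizzled partner, had 10009, 6374, 7344 and 5799 normalized counts untreated and 15245, 17317, 11356 and 14178 treated. The RYK groups were separate, and its log2 fold change fell just short of the threshold (0.99, adjusted p = 0.0129). RYK was called without horse D (1.12, adjusted p = 0.0391) and without horse L (1.11, adjusted p = 0.0254), alternatives 1.62e-05 to 0.0708. ROR2 was higher in each horse by a smaller step, averaging 4694 ± 1535 normalized counts without and 6608 ± 1689 with TGF-β2 (SD, n = 4; log2 fold change 0.53 ± 0.10 (SE), adjusted p = 0.0166).

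**Figure D2:**
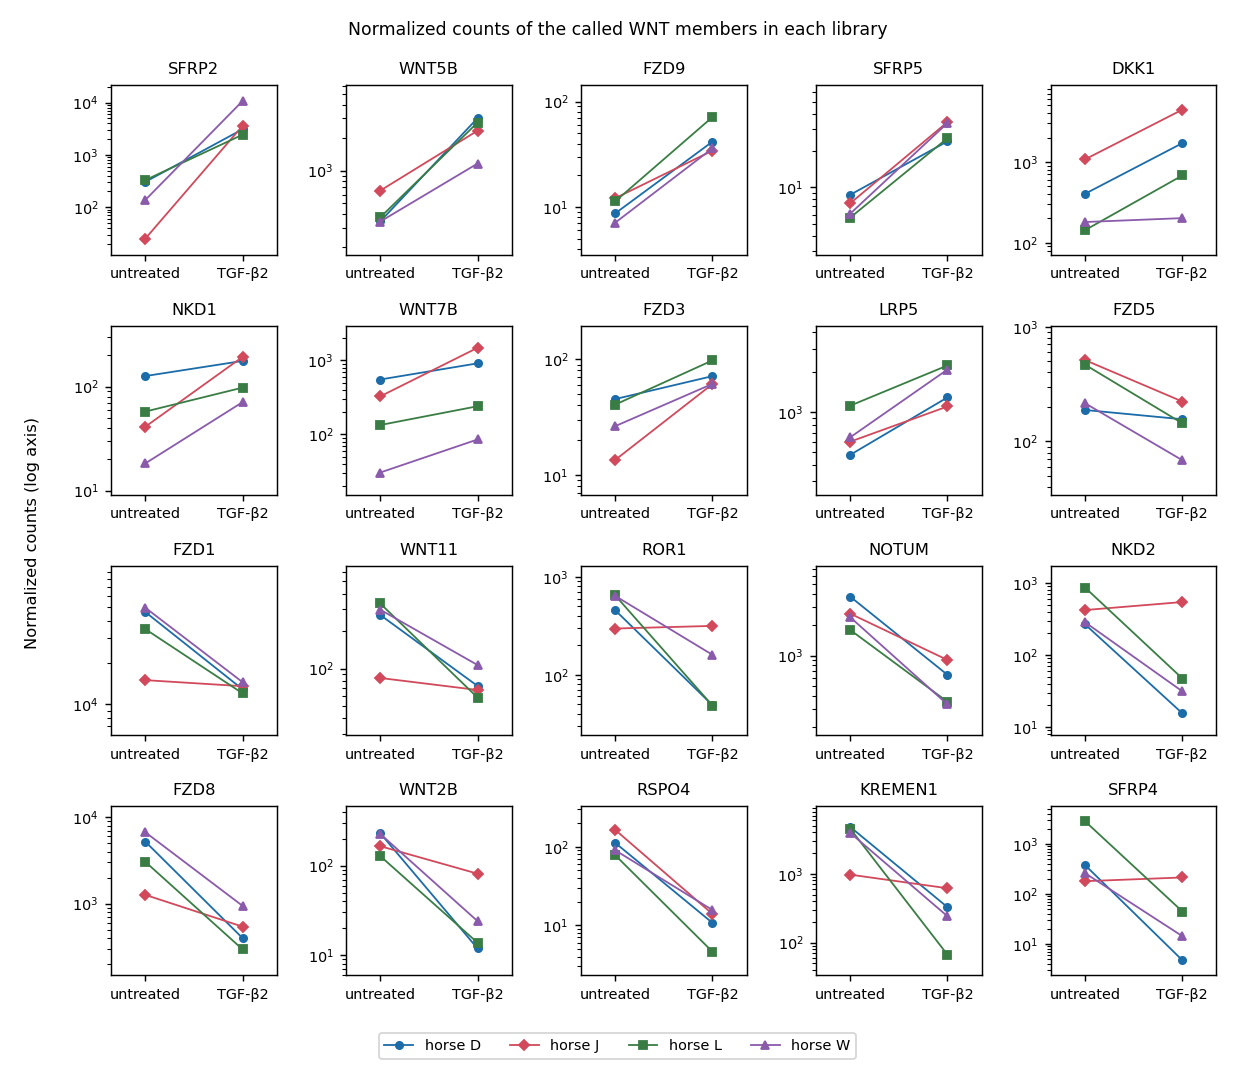
Normalized counts (vertical log axis) of the 20 called WNT members in untreated and TGF-β2 libraries (horizontal axis), with 1 line joining both libraries of each horse. For NOTUM and RSPO4 the 4 lines run down together, whereas for KREMEN1, FZD1, WNT11, SFRP4, NKD2 and ROR1 the line of horse J is nearly flat.

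The secreted frizzled-related proteins bind WNTs outside the cell through a frizzled-like domain. SFRP2, which can also amplify signalling in some settings, had 305, 24.9, 329.8 and 137 normalized counts untreated and 3103, 3613, 2442 and 10767 treated. The lowest treated library was well above the highest untreated one, horse J rose from the lowest level, and horse W ended far above the rest. Its log2 fold change of 4.91 ± 0.78 (SE, adjusted p = 0.00959) had rank 49 among the 1018 genes called higher. The SFRP2 call was lost without horse W (log2 fold change 4.45, adjusted p = 0.0584), alternatives 2.18e-09 to 0.0584. SFRP5 was scarce in untreated cells, at 8.70, 7.41, 5.65 and 6.09 normalized counts, and rose to 23.8, 34.3, 25.3 and 33.6. Its groups were separate (log2 fold change 1.92 ± 0.28 (SE), adjusted p = 0.00787). The SFRP5 call was lost without horse W (log2 fold change 1.80, adjusted p = 0.0511), alternatives 1.57e-05 to 0.0511.

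SFRP4, known as an inhibitor of bone formation, had 378, 180.4, 2832 and 261 normalized counts untreated and 4.76, 214, 44.8 and 14.4 treated. It dropped steeply in horses D, L and W, was slightly higher in horse J, and its untreated level in horse L stood far above the others (log2 fold change -3.96 ± 1.09 (SE), adjusted p = 0.0426). SFRP4 was not called by edgeR with the horse term (adjusted p = 0.0728), nor without horse D, L or W (log2 fold change -3.91 to -3.26, adjusted p from 0.127 to 0.156), alternatives 0.000435 to 0.156. DESeq2 without the horse term gave SFRP4 no adjusted p, so that fit did not call it and is not in this range. In total SFRP4 was called in 10 of 16 alternatives. SFRP1 had 13783, 5349.8, 5542 and 11815 normalized counts untreated and 6838, 4630.2, 2405 and 4377 treated. All 4 horses were lower, horse J least, and the log2 fold change was under the threshold at -0.96 ± 0.21 (SE, adjusted p = 0.0217). It passed the threshold without horse J (-1.22, adjusted p = 0.00216) and with equal totals (-1.28, alternatives 0.0003 to 0.125). WIF1, a secreted antagonist that binds WNTs directly, was detected in few libraries. It went from 379.7 to 1.15 normalized counts in horse L and from 0.673 to 74.9 in horse J. The 4 libraries of horses D and W held 0 to 2.61.

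DKK1, which blocks LRP5 and LRP6, had 404, 1076, 143 and 181 normalized counts untreated and 1708, 4433, 681 and 202 treated. Horses D, J and L rose steeply, horse W hardly did, and horse J was highest in both groups, so that the groups overlapped. With the horse block the log2 fold change was 1.63 ± 0.37 (SE, adjusted p = 0.0259), and without it the adjusted p was 0.268. The call of DKK1 was also lost without horse D or L (log2 fold change 1.43 to 1.48, adjusted p from 0.0812 to 0.11), alternatives 6.79e-05 to 0.268. DKK3, a divergent family member, averaged 22852 ± 7008 normalized counts without and 20741 ± 8000.3 with TGF-β2 (SD, n = 4), a log2 fold change of -0.19 (95% CI -0.58 to 0.21, adjusted p = 0.411). DKK4 held 9.42 to 15.7 normalized counts untreated and 3.60 to 15.5 treated (adjusted p = 0.167).

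The KREMEN receptors act with DKK proteins to remove LRP6 from the surface. KREMEN1 had 4811, 973, 4548 and 3945 normalized counts untreated and 328, 617, 66.7 and 241 treated. The groups did not overlap (log2 fold change -3.66 ± 0.82 (SE), adjusted p = 0.0248), but horse J was low before treatment and dropped little, with a log2 change of -0.66 against -4.02, -3.87 and -6.07 in horses W, D and L. The call of KREMEN1 was lost without horse D, L or W (log2 fold change -3.58 to -2.85, adjusted p from 0.056 to 0.109), alternatives 7.67e-07 to 0.109. KREMEN2 was scarce, at 6.09 to 53.9 normalized counts untreated and 2.14 to 24.0 treated (adjusted p = 0.532), and the sign of its difference turned without horse J.

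NOTUM, a secreted enzyme that removes the lipid from WNTs and so inactivates them, had 3787, 2577, 1786 and 2380.2 normalized counts untreated and 647, 905, 352 and 332 treated. Every treated library was below every untreated one (log2 fold change -2.31 ± 0.22 (SE), adjusted p = 0.00294), and the call held in each of the 16 alternatives with the thresholds unchanged.

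R-spondins amplify WNT signals by binding LGR receptors and drawing off the ubiquitin ligases RNF43 and ZNRF3, which otherwise remove frizzleds. RSPO4 had 112, 164, 78.2 and 90.3 normalized counts untreated and 10.7, 13.9, 4.60 and 15.6 treated. The 4 horses changed by -3.82 to -2.46 on the log2 scale, and the adjusted p was the lowest of the 48 tested members (log2 fold change -3.26 ± 0.29 (SE), adjusted p = 0.00249). The RSPO4 call held in each of the 16 alternatives. RSPO3 had 1929.8, 1039, 576 and 1183 normalized counts untreated and 704, 989, 266 and 688 treated. It was lower in each horse, by little in horse J, and under the fold threshold (log2 fold change -0.85 ± 0.23 (SE), adjusted p = 0.0418). It passed the threshold without horse J (-1.12, adjusted p = 0.00643) and with equal totals (-1.17, alternatives 0.00519 to 0.223). RSPO1, under the filter, had 5.22, 10.8, 11.3 and 45.7 normalized counts untreated and 1.19, 1.07, 5.75 and 7.21 treated, lower in each horse with overlapping groups. Of their receptors, LGR4 averaged 3708 ± 1665 normalized counts without and 2592 ± 226 with TGF-β2 (SD, n = 4; log2 fold change -0.43, adjusted p = 0.189). LGR6 held 21.3 to 64.1 normalized counts in every library but treated horse J, at 383 (log2 fold change 0.91, adjusted p = 0.375). RNF43 (log2 fold change 0.20, adjusted p = 0.676, its sign turning with equal totals) and ZNRF3 (log2 fold change -0.27, adjusted p = 0.292) were not called in any alternative.

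Among the inhibitors inside the cell, NKD1 and NKD2, which bind Dishevelled and restrain signalling, moved in opposite directions. NKD1 had 126, 41.1, 57.5 and 18.3 normalized counts untreated and 176, 193, 97.7 and 70.9 treated. Each horse was higher and the groups overlapped (log2 fold change 1.33 ± 0.35 (SE), adjusted p = 0.0379), with an adjusted p of 0.136 without the block. The NKD1 call was lost without horse D, J, L or W (log2 fold change 1.04 to 1.62, adjusted p from 0.0602 to 0.148), alternatives 0.0046 to 0.148. NKD2 had 265, 419, 859 and 284 normalized counts untreated and 15.5, 542, 47.1 and 31.2 treated. Horses D, L and W dropped steeply and horse J did not (log2 fold change -2.74 ± 0.79 (SE), adjusted p = 0.0482). The adjusted p of NKD2 was 0.0816 without the block and 0.0708 by edgeR with the horse term. The NKD2 call was also lost without horse D, L or W (log2 fold change -2.60 to -2.26, adjusted p from 0.142 to 0.172), alternatives 0.000128 to 0.23.

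AXIN2, both an inhibitor in the β-catenin destruction complex and a widely used target gene of canonical signalling, had 1779, 982, 785 and 614 normalized counts untreated and 768, 925, 364 and 308 treated. It was lower in horses D, L and W and nearly level in horse J. The log2 fold change was -0.85 ± 0.21 (SE, adjusted p = 0.0317), -1.10 without horse J (adjusted p = 0.00269) and -1.16 with equal totals, both of these past the threshold (alternatives 0.00223 to 0.202). AXIN1, the constitutive partner, averaged 2163 ± 160.1 normalized counts without and 2337 ± 228 with TGF-β2 (SD, n = 4), a log2 fold change of 0.11 (95% CI -0.08 to 0.30, adjusted p = 0.311) whose sign turned with equal totals.

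None of the 4 TCF/LEF factors was called by limma, by edgeR or by DESeq2, and 2 of them had an unadjusted p under 0.05. TCF7L2 had 1623, 1689.9, 1480.3 and 1675 normalized counts untreated and 995, 1088, 927 and 1152 treated. Its groups were separate and tight (log2 fold change -0.64 ± 0.08 (SE), adjusted p = 0.00566), a difference smaller than the fold threshold. TCF7L1 averaged 1953 ± 695 normalized counts without and 1331 ± 255 with TGF-β2 (SD, n = 4; log2 fold change -0.48 ± 0.17 (SE), adjusted p = 0.077). LEF1 and TCF7, which are often targets of the pathway themselves, were higher in treated horse J and mixed in the others. LEF1 went from 173 to 1017 normalized counts in horse J and from 918 to 823 in horse D (log2 fold change 0.76, adjusted p = 0.283). TCF7 went from 1095 to 3786 and from 1243 to 630.0 in horses J and L (log2 fold change 0.20, adjusted p = 0.759), its sign turning with equal totals.

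In horse J many of the members called lower moved little. Of the 15 members called lower without horse J, its own change was the smallest of the 4 horses in 13 (86.7%), against 53.4% of the 1299 genes called lower in that fit. It ran the opposite way in 4 of these members (26.7%), against 14.6% of those genes. The median change of horse J in the called direction was 0.21 on the log2 scale, beside 2.58 for the mean of horses D, L and W. Over all genes called lower the same medians were 1.26 and 1.71. Among the 9 members called higher, horse J was smallest in 3 (33.3%), against 49.0% of all genes called higher, with medians of 2.04 in horse J and 1.504 in the other 3 horses. Since these genes were called on the 3 horses with which J is compared, the counts are a description, and the difference between horses was not tested.

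**Figure D3:**
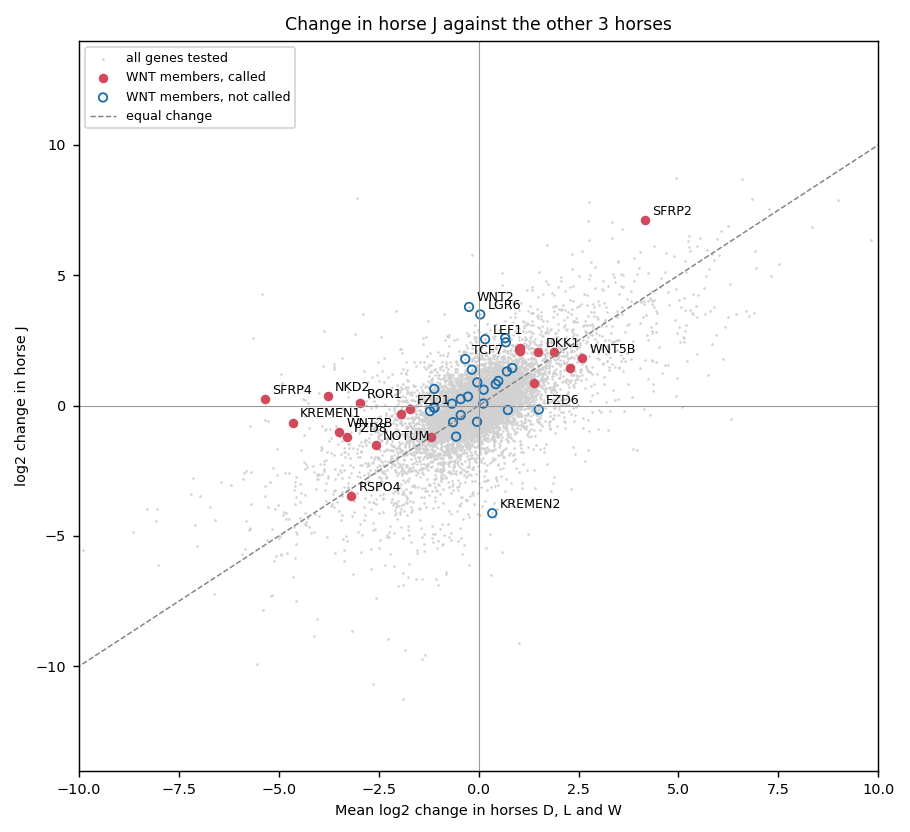
Log2 change with TGF-β2 in horse J (vertical axis) against the mean log2 change in horses D, L and W (horizontal axis) for all genes tested (grey), called WNT members (filled) and other tested WNT members (open), with the line of equal change dashed. SFRP4, NKD2, ROR1, KREMEN1 and FZD1 lie well left of 0 and near 0 in horse J, RSPO4 lies on the line, and WNT2 and LGR6 are high in horse J and near 0 on the mean of the others.

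Other values of horse J moved with this pattern. Its untreated library was the lowest of the 4 untreated ones in 22 of the 48 members (45.8%, against 35.8% of all genes), including FZD1, FZD8, KREMEN1 and WNT11. The 3 osteoblast markers in the table, ALPL, SP7 and IBSP, summed to 4470.5 normalized counts in untreated horse J and 13235 to 26900 in the other untreated libraries. After TGF-β2 they summed to 51878 in horse J and 1445 to 3354 in the other horses. The leukocyte markers were highest in untreated horse J, as given above, and this library had the lowest mean correlation with its own group across genes, 0.932 against 0.951 to 0.957. The part of these values in the WNT results was not tested.

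The median WNT member varied more between horses than the median gene. In untreated cells the highest horse was a median of 2.41 times the lowest over the 46 members with more than 3 reads in every library, against 1.63 times over all such genes, and in treated cells the medians were 2.58 and 1.41. WNT7B spanned 18.2-fold among untreated horses, SFRP4 15.7-fold and SFRP2 13.2-fold. Divided by treatment and horse, the sum of squares of the median member was 40.7% treatment and 27.7% horse, against 32.2% and 39.4% for the median gene. Treatment took a larger share than horse in 26 of the 48 members (54.2%) and in 45.2% of all genes. DKK3 and WNT7B had the largest horse shares, at 84.7% and 82.9%, and SFRP5 the largest treatment share, at 94.998%. All 4 untreated levels of SFRP5 were under 10 normalized counts, so it entered the test only through the treated libraries, where it is high. For DKK1 the horse share was 68.2%, and DKK1 was called by limma with the block and not without it.

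**Figure D4:**
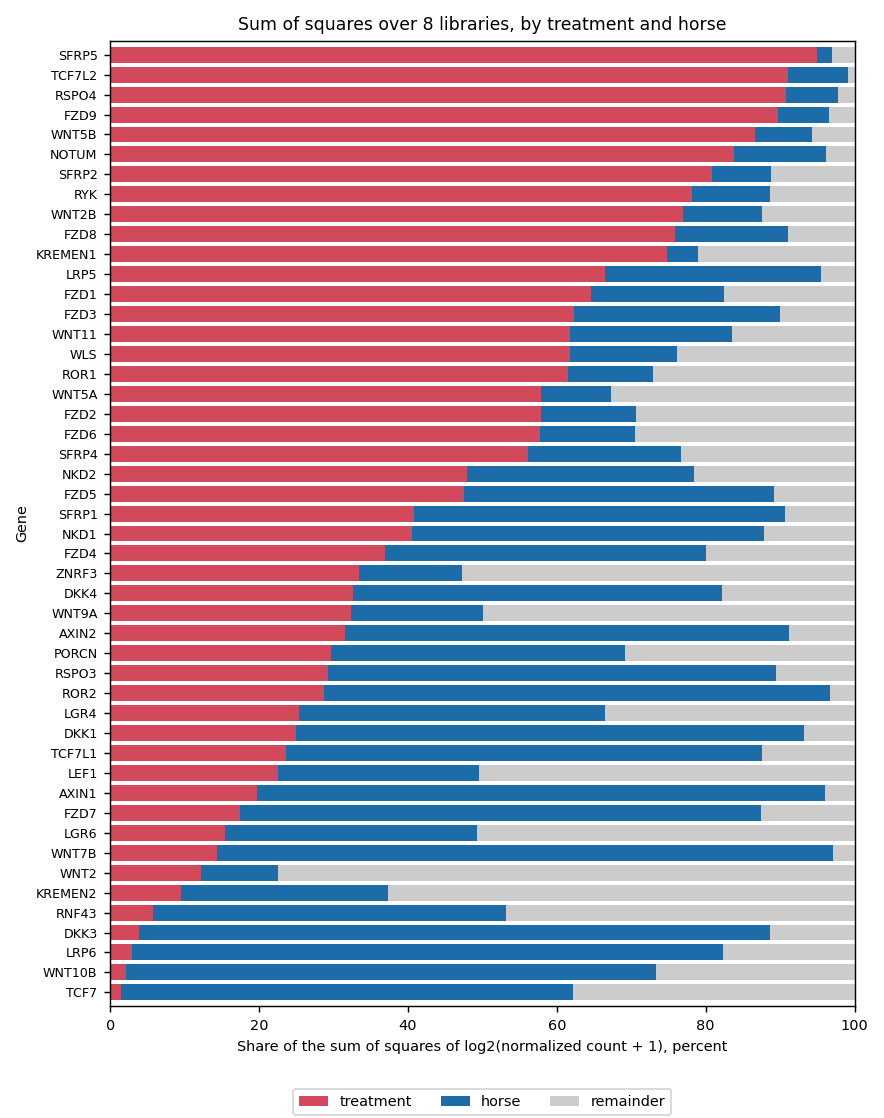
Share of the sum of squares of log2(normalized count + 1) over the 8 libraries, in percent (horizontal axis), taken by treatment, horse and the remainder for each of the 48 tested WNT members (vertical axis), ordered by the treatment share. SFRP5, TCF7L2 and RSPO4 are at 90.8% or more for treatment, and the horse share is largest in DKK3, at 84.7%, and WNT7B.

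Other genes of the pathway were taken from lists and put beside the members. Each list was chosen with earlier results of these data known, so its called share, here and below, is a description and not a test. Among 27 tested modulators outside the cell or at its surface, 6 were called higher and 6 lower (44.4%, against 14.1% of all genes called). Without horse J 6 were higher and 10 lower, beside 1143 higher and 1299 lower of all 14907 genes tested. Those that rose included TRABD2A, a membrane protease that cleaves WNTs (log2 fold change 3.94, adjusted p = 0.00925), SHISA2, which retains frizzleds inside the cell (log2 fold change 3.82, adjusted p = 0.00357), DRAXIN, a secreted antagonist (log2 fold change 3.34, adjusted p = 0.0071), TPBG (log2 fold change 2.65, adjusted p = 0.00234), TSPAN12, a partner of FZD4 (log2 fold change 1.71, adjusted p = 0.0259), and PTK7, a polarity co-receptor (log2 fold change 1.48, adjusted p = 0.0137). Those that fell included GPC3, a heparan sulfate proteoglycan that binds WNTs (log2 fold change -7.69, adjusted p = 0.00367), LRP4, a receptor for sclerostin (log2 fold change -3.22, adjusted p = 0.0465), NDP, the FZD4 ligand norrin (log2 fold change -2.98, adjusted p = 0.0096), and IGFBP4 (log2 fold change -1.55, adjusted p = 0.0123). SHISA2 had only 0 to 4 reads in untreated and 13 to 40 in treated libraries, so the size of its fold change depends on the pseudocount (log2 2.39 to 4.66 over the fits). It also entered the test only through the treated libraries, where it is high. GPC3 had 5672, 365, 10246 and 12081 normalized counts untreated and 33.4, 11.8, 8.05 and 34.8 treated. The groups were far apart, with horse J lowest before treatment. Leaving out a horse ended 5 of these 10 calls. TSPAN12 and LRP4 were not called without horse D, L or W (log2 fold change 1.39 to 1.68 and -3.25 to -2.45, alternatives 0.000107 to 0.117 and 0.00211 to 0.167). TRABD2A and PTK7 were not called without horse D or W (log2 fold change 3.60 to 3.79 and 1.46 to 1.52, alternatives 2.70e-10 to 0.0573 and 1.99e-06 to 0.0676). IGFBP4 was not called without horse W (log2 fold change -1.44, alternatives 6.76e-07 to 0.0699).

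In the β-catenin machinery, 2 of 37 tested genes were called lower (5.41%, against 7.31% of all genes called lower and 14.1% called in either direction). These were TLE4, a co-repressor of TCF factors (log2 fold change -1.45, adjusted p = 0.00219), and FRAT1, a binder of the kinase GSK3 (log2 fold change -1.73, adjusted p = 0.0398). The FRAT1 call was lost without horse D, L or W (log2 fold change -1.91 to -1.34, adjusted p from 0.0764 to 0.154), alternatives 0.00768 to 0.154. FRAT1 had only 3 to 7 reads in treated libraries, so it entered the test only through the untreated ones, where it is high. With all 4 horses no gene of that list was called higher by limma, although 11 had an unadjusted p under 0.05 and a positive change. The count models edgeR and DESeq2 with the horse term called 0 and 0 of the list higher, beside 990 and 1112 over all genes tested. Without horse D limma called BCL9 (1.03, alternatives 1.88e-05 to 0.0659) and APC2 (1.01, alternatives 4.36e-06 to 0.103) higher, and without horse W CXXC5 (1.07, alternatives 1.55e-08 to 0.0373), as log2 fold changes. These 3 genes were named after their values were seen. Without horse J, 4 of the 37 genes were called lower, beside 1299 of all 14907 genes tested. CTNNB1, the gene of β-catenin, averaged 48055 ± 15279.5 normalized counts without and 38435 ± 11607 with TGF-β2 (SD, n = 4), a log2 fold change of -0.31 (95% CI -1.02 to 0.39, adjusted p = 0.433). The median of the list was 0.01, with a median absolute log2 fold change of 0.26, beside 0.35 for all genes and 0.98 for the WNT members.

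In the planar polarity and calcium branches, 6 of 28 tested genes were called higher and 2 lower (28.6%, against 14.1% of all genes called). With equal totals the balance turned to 3 higher and 4 lower, as CELSR2, DAAM1 and PRKCA were no longer called (log2 fold changes 0.73, 0.78 and 0.74) and CAMK2B and NFATC1 were called lower (-1.09 and -1.28). Over all genes tested that scaling called 697 higher and 1832 lower. The core polarity genes CELSR1 (log2 fold change 4.66, adjusted p = 0.00988), VANGL2 (log2 fold change 2.92, adjusted p = 0.0203), PRICKLE1 (log2 fold change 1.34, adjusted p = 0.0138) and CELSR2 (log2 fold change 1.04, adjusted p = 0.0466) rose. So did DAAM1, a formin that links Dishevelled to actin (log2 fold change 1.09, adjusted p = 0.0143), and PRKCA, a calcium-dependent kinase (log2 fold change 1.05, adjusted p = 0.0105). CAMK2A, a calmodulin-dependent kinase (log2 fold change -2.03, adjusted p = 0.00333), and NFATC4, a calcium-regulated transcription factor (log2 fold change -1.07, adjusted p = 0.0087), fell. CELSR1 had 2.61, 2.02, 5.65 and 0 normalized counts untreated and 48.8, 24.6, 132 and 174 treated. Every treated library was above every untreated one, and the untreated levels were at or near the 3-read limit, where the size of a fold change depends on the pseudocount. All untreated levels of CELSR1 were under the filter's 10 normalized counts. It thus entered the test only through the treated libraries, where it is high. CELSR2 was not called without the block (adjusted p = 0.168) or without horse D, L or W (log2 fold change 0.81 to 1.11, adjusted p from 0.135 to 0.171), alternatives 0.00721 to 0.171. VANGL2 and PRKCA were not called without horse D or W (log2 fold change 2.58 to 3.27 and 0.93 to 0.94, alternatives 8.82e-06 to 0.0966 and 4.27e-06 to 0.0608). PRICKLE1 was not called without horse W (log2 fold change 1.37, alternatives 8.57e-06 to 0.0699). DAAM1 was not called without horse D, L or W (log2 fold change 0.92 to 1.11, alternatives 2.58e-05 to 0.0734). NFATC4 was not called without horse L or W (log2 fold change -1.07 to -0.90, alternatives 6.85e-07 to 0.056).

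Of 28 tested genes listed as targets of β-catenin and TCF, 4 were called higher and 7 lower (39.3%, against 14.1% of all genes called). EDN1, EPHB3, MSX2 and SOX9 rose (log2 fold changes 4.39, 3.01, 1.70 and 1.21), and TNFRSF19, TWIST1, LBH, MSX1, EPHB2, WISP2 and JUN fell (-7.21, -2.47, -1.64, -1.57, -1.48, -1.39 and -1.28). MYC (log2 fold change 0.30, adjusted p = 0.196) and CCND1 (log2 fold change 0.33, adjusted p = 0.225), cell cycle genes often used as readouts, were not called. EPHB3 and EPHB2 were not called without the block (adjusted p = 0.0696 and 0.0652). EPHB2 was not called without horse D, L or W (log2 fold change -1.53 to -1.07, alternatives 0.000907 to 0.131). EPHB3 and SOX9 were not called without horse D or W (log2 fold change 2.68 to 2.85 and 0.96 to 1.30, alternatives 1.04e-07 to 0.0898 and 6.30e-05 to 0.0717). Several of these genes, among them SOX9, MSX2 and EDN1, also respond to other pathways, so the list is not a readout of β-catenin alone.

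**Figure D5:**
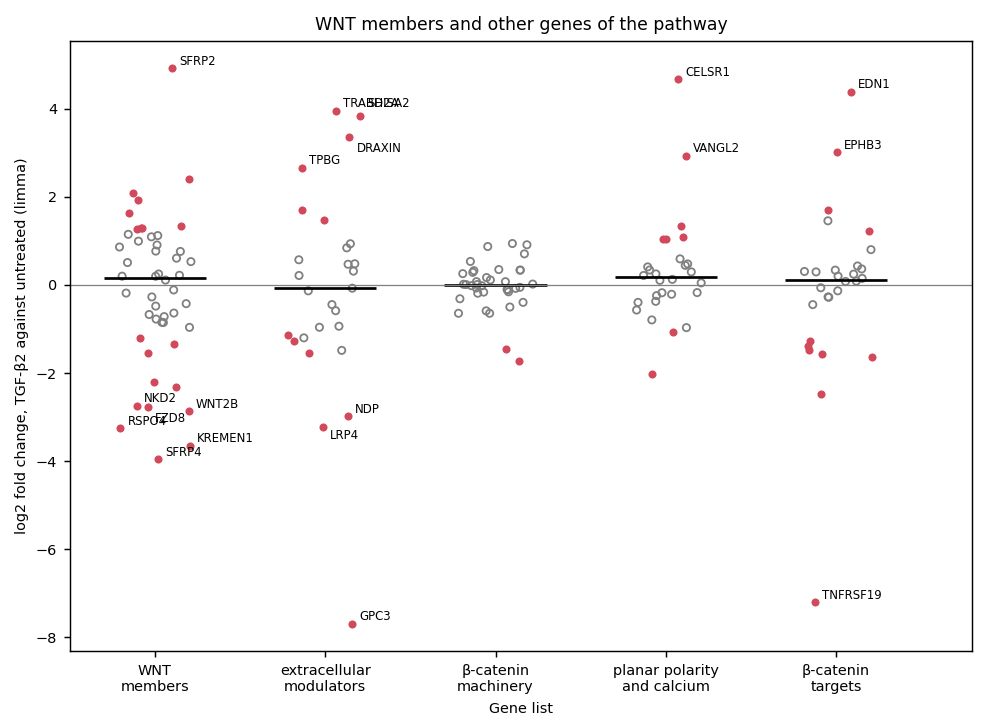
Log2 fold change from limma, TGF-β2 against untreated (vertical axis), for the tested WNT members and 4 lists of other genes of the pathway (horizontal axis), with called genes filled, other genes open and a bar at each median. Members and modulators outside the cell spread widely in both directions, while the 37 genes of the β-catenin machinery cluster near 0.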

How the data were processed

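RNA from 4 untreated and 4 TGF-β2 cultures was poly(A)-selected and sequenced. Per the labels and the study's methods, the authors trimmed reads with Trimmomatic 0.36, aligned them with STAR 2.5.2b to the horse genome EquCab 3.0, counted them with featureCounts of Subread 1.5.2 and normalized them with DESeq2, whose version is not given in the sources used here. Strandedness of the counting is likewise not given, so overlapping genes on opposite strands may share reads. The deposited table holds normalized counts, a signal in which each library's whole counts are divided by a size factor. Whole reads were recovered from it for 100% of values (tolerance 0.01 of a read) and were used only in count models. 1 row without a gene name was left out.

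Genes reaching 10 normalized counts in 4 or more of 8 libraries were fitted in limma 3.58.1 (R 4.3.3, eBayes with trend) on log2(normalized count + 1), two-sided, with Benjamini-Hochberg adjustment over all genes tested. Fold changes on this scale understate differences of low genes. The horse was a block, since both cultures came from the same marrow. Deviations from the group means correlated at 0.48 on average (0.39 to 0.61) between the libraries of the same horse. Those of different horses correlated at -0.16, a negative value that largely follows from centring each group on its mean and is no separate evidence. Libraries of a group are separate horses, with 1 culture each. The alternatives were the unblocked fit, edgeR 4.0.16 and DESeq2 1.42.0 on recovered reads, other scalings, filters, pseudocounts (0.5 and 5) and thresholds, no variance trend, and each horse left out. Intervals are 95% confidence intervals of the mean change over the horses, and the change of a single horse can lie outside them. No transcript lengths were used, so levels are not compared between genes.

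Members come from a symbol rule, and they and the pathway, marker and response lists were chosen with earlier results of these data known. Named with values in each library are the members called with the block or with only one of the blocked and unblocked fits, and a few of the others, and each pathway list is named by up to 10 called genes of largest fold change. On simulated counts with 200 of 15114 genes changed 4-fold, the blocked fit recovered 200 with 2 other calls and the unblocked fit 183 with 0. The simulation gave both libraries of a horse the same shift and every horse the same treatment effect. It therefore favours the block by its design and does not measure the error of calls where the horses differ.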

Additional observations from a re-analysis of the deposited data

Results flagged for a closer look

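In 7 of the 96 groups of 4 libraries formed by the 48 tested members, 1 library stood farther from the other 3 than Dixon's 95% limit allows. This is 7.29% of the groups, beside 7.24% over all genes tested. For normally distributed values chance alone gives about 1 group in 20. The distances were taken on normalized counts and not on the log2 scale of the fits, and whether the values were normally distributed was not tested. SFRP2 in treated horse W had 10767.0 normalized counts, with 2442 to 3613 in the other treated libraries. SFRP4 in untreated horse L had 2832.5, with 180.4 to 377.6 in the other untreated ones, and WNT10B in the same library had 1756.4, with 365.3 to 575.1 in the others. WNT5B in untreated horse J had 654.4, with 340.9 to 372.2 in the others. Treated horse J accounted for NKD2 at 541.7 (15.5 to 47.1 in the other treated libraries), LGR6 at 383.3 (34.5 to 48.1) and PORCN at 604.9 (421.9 to 451.4). The treated and untreated groups of SFRP2 and WNT5B were separate with these libraries included, whereas NKD2 in treated horse J lay inside the untreated range.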

How the results depend on the processing

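Without the horse block, 1709 genes were called in place of 2108, and 9 members in each direction in place of 9 higher and 11 lower. An adjusted p under 0.01 left 1116 genes, 5 members higher and 3 lower, and dropping the fold threshold gave 4610 genes. Scaling to equal totals left 5 members higher. With 1 horse left out, the fit has fewer samples and called 1080 (without horse W) to 2442 genes (without horse J), 4 (W) to 9 members higher (J) and 2 (W) to 15 lower (J). Direction turned only in members that were not called: with equal totals in WNT10B (-0.093), RNF43 (-0.10), AXIN1 (-0.20), TCF7 (-0.12) and PORCN (-0.064). Without horse J it turned in 5 members, whose log2 fold changes over the fits without 1 horse were -0.24 to 1.43 in WNT2, -0.17 to 0.52 in WNT10B, -0.034 to 0.44 in RNF43, -1.39 to 0.34 in KREMEN2 and -0.33 to 0.59 in TCF7. The cause was not tested. TMM scaling, both other pseudocounts and the fit with no filter changed no call of a tested member, and the fit with no filter also called RSPO1 (-1.85, adjusted p = 0.0297) and WNT8A (-1.72, adjusted p = 0.0354) lower. The count models with the horse term called 23 (DESeq2) and 17 members (edgeR), beside 2343 and 2059 over all genes tested. Only 6 to 11 reads lay behind SFRP5 and 7 to 18 behind FZD9 in untreated libraries, so their fold changes are imprecise.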

Other observations

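Proteins that shape the heparan sulfate to which WNTs bind outside the cell were also measured. SULF2, a sulfatase that releases WNTs from heparan sulfate, had 5328, 8653, 5715 and 7543 normalized counts in untreated horses D, J, L and W and 2240.4, 4563, 3550.0 and 3802 in the treated cultures, lower in each horse but under the fold threshold (log2 fold change -0.96 ± 0.11 (SE), adjusted p = 0.0042). SULF1, its relative, was not called (log2 fold change 0.48 ± 0.23 (SE), adjusted p = 0.164). CTHRC1, a secreted glycoprotein known to favour binding of WNTs to ROR2, had 30713, 30232, 25185 and 47032 untreated and 53339, 48655, 59678 and 72976 treated, with separate groups (log2 fold change 0.84 ± 0.14 (SE), adjusted p = 0.0115). FRZB, a further secreted frizzled-related protein, held 12.2 to 24.4 untreated and 20.3 to 43.7 treated (adjusted p = 0.28), and GPC4, a glypican like GPC3, had a log2 fold change of -0.07 (95% CI -0.75 to 0.60).

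Markers of other cell types of the marrow were summed as normalized counts. The 2 adipocyte markers in the table gave 414 to 988 untreated and 358 to 629.5 treated, although ADIPOQ rose (log2 fold change 3.12, adjusted p = 0.0133). The 2 cartilage markers gave 118 to 441 and 123 to 1272. The 2 endothelial markers gave 7.10 to 26.3 and 30.04 to 55.7, with KDR higher (log2 fold change 2.27, adjusted p = 0.0109). Without horse D neither was called (ADIPOQ log2 fold change 3.27, adjusted p over all alternatives 1.54e-06 to 0.0583, and KDR 2.30, 0.00117 to 0.0542). The 3 epithelial markers were not analysed here.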
